A study of Homo sapiens with 30 samples.

Results

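Nascent transcription measured 4 h after MYC degradation was compared, gene by gene, with mRNA measured after 24 h in DTMYC cells. The members were the 15424 gene symbols with exactly 1 row in the PRO-seq table and 1 row in the RNA-seq table, of 22349 symbols in either table. Of these, 11150 had enough counts to be tested in both assays, 906 in RNA-seq only, 621 in PRO-seq only and 2747 in neither. DTMYC cells derive from G401, an established line of malignant rhabdoid tumour of the kidney. They express MYC from a lentivirus, with an HA tag and an FKBP12F36V degradation module at its N-terminus, and their endogenous MYC gene was removed with CRISPR-Cas9, so both the DMSO and the dTAG47 group carry the fusion and lack the original gene. The labels do not say whether DTMYC is 1 clone. The early comparison used 2 PRO-seq libraries in 500 nM dTAG47 against 2 in DMSO at 4 h, and the late comparison 3 RNA-seq libraries in 500 nM dTAG47 against 3 in DMSO at 24 h. Parental G401 cells, which hold no tagged MYC, were given the same compound or DMSO for 24 h with 3 RNA-seq libraries each. Nothing in the labels says that replicates were separate cultures, so p-values measure the spread between these libraries. Assay and time changed together, and their parts in any difference cannot be told apart.

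MYC is a transcription factor that binds DNA as a dimer with MAX, preferring the E-box CACGTG, and it is known for raising genes of ribosome production, nucleotide synthesis and mitochondrial function. dTAG47 joins the FKBP12F36V module to a ubiquitin ligase, which leads to degradation of the fusion protein. PRO-seq maps RNA polymerases engaged on a gene by extending nascent RNA with a labelled nucleotide, so gene body counts follow current synthesis. RNA-seq counts the accumulated transcript, whose level depends on synthesis and on decay.

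Of 132 genes with both an early and a late fall, 42 had a MYC ChIP-seq region near their start. The sites below come from 8 of these genes, those with the largest changes among well measured genes whose region held an E-box, and show the E-box (capitals) nearest to the midpoint of a MYC ChIP-seq region that both DMSO libraries contained. Each is written 5′ to 3′ on the strand of its gene, from GRCh37 (hg19).
ECE2: cagtgatgagccCACGTGagtctgacacct
MYBBP1A: tgagactgggggCACGTGgtcgcgaacctg
LAMC3: gacttctgtcccCACGTGggcgccgcgggc
IMP4: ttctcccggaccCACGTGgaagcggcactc
NLE1: ctctttctcctcCACGTGgggacgcaggat
EXOSC5: taaacgctaagcCACGTGcggacgcccagg
RABEPK: ccctagaactgcCACGTGgggatgagattt
MINA: cagagagtcgcaCACGTGgcctgctaatgg

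Several of these genes serve ribosome production: IMP4 and NLE1 act in assembly of the ribosomal subunits, MYBBP1A is a nucleolar protein, and EXOSC5 is a subunit of the RNA exosome. Distances run from the middle of the E-box to the transcript start in the PRO-seq table, whose coordinates may count from 0 or from 1, so that distances and gene starts can be off by 1 base. The IMP4 site (chr2:131100473-131100502) spans the start, with the middle of its E-box 2 bases before it, in an annotated untranslated exon. The NLE1 site lies at chr17:33469293-33469322, 15 bases after its start. The ECE2 site (chr3:183967219-183967248) lies 212 bases before the ECE2 start and within an untranslated exon of ALG3, which runs the other way. The MYBBP1A site (chr17:4458322-4458351) is intronic, 345 bases after the start, and the LAMC3 site (chr9:133884779-133884808) falls in coding sequence, 289 bases after the start. The EXOSC5 site (chr19:41903336-41903365) is 94 bases upstream of the start, the RABEPK site (chr9:127963053-127963082) is exonic, 246 bases after it, and the MINA site (chr3:97690937-97690966) is in an untranslated exon, 344 bases after it.

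The libraries held 27854207 to 54633745 RNA-seq counts (27854207 to 35152287 in DTMYC cells) and 18209879 to 23256313 PRO-seq gene body counts. MYC mRNA itself was at 1329, 1353 and 1418 CPM in DMSO and 1478, 1404 and 1349 CPM in dTAG47. Its gene body was at 95.9 and 72.1 against 98.6 and 70.3 CPM (CPM, counts scaled to normalised library sizes). The original MYC gene is described as removed, and which sequence these reads came from was not tested. Neither assay separated the treatments for MYC, whose removal by dTAG47 is at the protein. KRT8 and KRT18, epithelial keratins, were at 3884 to 4944 and 1214 to 1605 CPM, while only 2 of the 12 haematopoietic and 2 of the 11 measured neuronal markers reached 1 CPM. The summed neuronal markers were 119.9 to 122.3 CPM in DMSO and 59.4 to 67.1 CPM in dTAG47, which is largely NEFH, described below, and the summed haematopoietic markers 75.1 to 92.9 and 90.1 to 107.6 CPM. The summed kidney epithelial markers were 5168 to 5699 CPM in DMSO and 5900 to 6693 CPM in dTAG47, and 3 of 15 reached 1 CPM. The summed rhabdoid and mesenchymal markers were 6785 to 7335 and 7659 to 8514 CPM, and 9 of 15 did. The part of these markers in other results was not tested.

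RNA-seq called 549 of the 11150 genes lower after dTAG47 (4.92%) and 527 higher (4.73%) at an adjusted p under 0.05 by edgeR's quasi-likelihood test, within 595 (4.44%) and 572 (4.27%) of all 13401 genes tested. In parental cells the same test called 16 of the 11150 genes (0.143%), and the change differed between the lines in 147 (1.32%). The count of calls depended on single libraries. Leaving out any 1 of the 6 DTMYC libraries left 329 to 636 calls of 1167, leaving out parental DMSO replicate 3 gave 3951, and fitting the 6 DTMYC libraries alone gave 4593. In PRO-seq, edgeR called 0 of 13397 gene bodies (0%). There, 1298 genes had an unadjusted p under 0.05, the smallest adjusted p was 0.274, and DESeq2 called 67. An early change was therefore defined by size: a gene body log2 change of at least 0.5 in either direction with no overlap between the 2 DMSO and the 2 dTAG47 libraries. This held for 258 falls (2.31%) and 207 rises (1.86%), and groups that did not overlap, at any size, were seen in 4656 genes (41.8%).

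The 2 changes went the same way for most genes. Over all 11150 genes Pearson's r was 0.53 and Spearman's rho 0.64, and 8392 genes (75.3%) had the same sign. Among 8946 genes with at least 5 CPM in RNA-seq and 50 gene body counts, r was 0.76 and rho 0.74. These are descriptions across genes, which are not independent, and the 2 assays share no library. The parental mRNA change had an r of 0.06 with the DTMYC gene body change, and 53% of genes had the same sign. Promoter-proximal PRO-seq counts, taken near the start where polymerase pauses, gave an r of 0.36 with the mRNA change over 8996 genes.

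The early assay had no part in the RNA-seq calls. Of the 549 genes that fell, 534 (97.3%) had a negative gene body change, with medians of -0.42 in mRNA and -0.36 in gene bodies. Both dTAG47 PRO-seq libraries lay below both DMSO libraries in 430 of them (78.3%) and above in 1, where 20.0% of all tested genes lay below. Of the 527 genes that rose, 485 (92.0%) had a positive gene body change, with medians of 0.49 and 0.26. Their PRO-seq libraries were all higher in 282 (53.5%) and all lower in 8, where 21.7% of all tested genes were all higher. With the genes sorted into 10 groups by gene body change, the lowest group (-1.92 to -0.29) had a median mRNA change of -0.30 and held 365 genes that fell (32.7%) and 13 that rose. The highest group (0.29 to 1.94) had a median of 0.33 and held 242 that rose (21.7%) and 0 that fell. Parental medians ran only from -0.09 to -0.01 across the 10 groups.

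**Figure D1:**
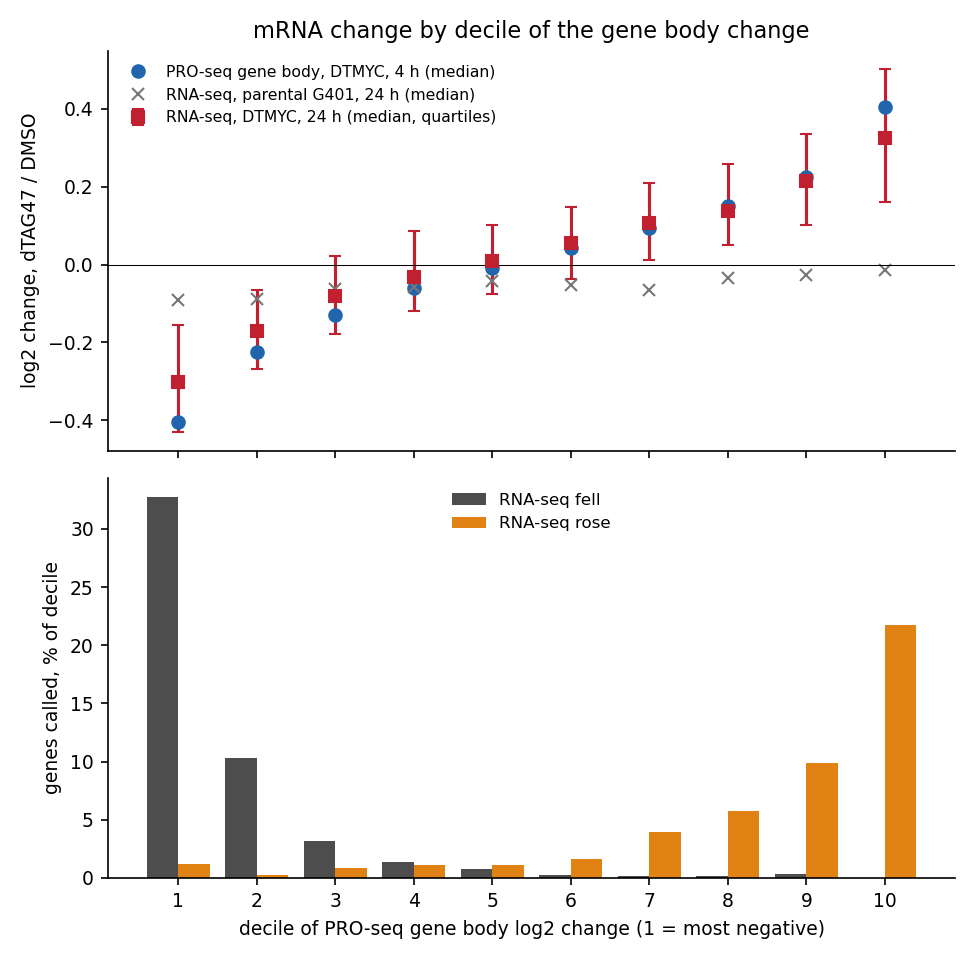
mRNA change in 10 groups of genes sorted by the PRO-seq gene body log2 change (group 1 the most negative, 1115 genes each). The upper panel gives median log2 changes in gene bodies (circles), in DTMYC mRNA (squares with quartiles) and in parental mRNA (crosses), and the lower panel the percentage of each group called lower or higher in RNA-seq: 32.7% fell in group 1 and 21.7% rose in group 10.

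DESeq2, tried as another test, gave the early assay its own calls. Of its 67 genes, 59 were members tested in both assays, 54 lower and 5 higher. All 59 had an mRNA change of the same sign at 24 h, and 43 were also called by edgeR in RNA-seq in that direction. The genes named here were chosen after their values were seen. The smallest DESeq2 adjusted p (1.95e-07) was that of LAMC3, a laminin chain, with gene body and mRNA changes of -0.87 and -0.68 on the log2 scale in the edgeR fits. POLR1B, the second-largest subunit of RNA polymerase I, was also among them (-0.63 and -0.58), as was GEMIN5, which delivers small nuclear RNAs to the SMN complex (-0.74 and -0.53). Of the 54 that were lower, 24 had a MYC region in both DMSO libraries.

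Classes were then set by both changes, so their own values are a description with no test. Concordant genes, with an early change and an RNA-seq call of the same sign, numbered 192: 132 fell and 60 rose. Early-only genes, with an early change, no RNA-seq call and an mRNA log2 change under 0.25 in size, numbered 100: 39 fell and 61 rose. Late-only genes, called in RNA-seq with an mRNA change of at least 0.5 and a gene body change under 0.25, numbered 103: 21 fell and 82 rose. Only 2 genes changed in opposite directions, MAP1LC3C (gene body -0.72, mRNA 0.65) and TNNC1 (-0.74, 0.55), on 23.0 and 15.5 gene body counts per library. Other RNA-seq calls had gene body changes between these limits or overlapping PRO-seq groups, or small mRNA changes: 396 lower (median gene body change -0.32) and 383 higher (0.27). Class sizes moved with single libraries. Without 1 library the concordant count was 94 to 358, over 1.5 times from 192 for every DTMYC RNA-seq library but DMSO replicate 2 and for PRO-seq DMSO replicate 2 and dTAG47 replicate 1. The early-only count was 90 to 393, with 269 to 393 for each PRO-seq library left out. The late-only count was 46 to 160, over 1.5 times from 103 for every DTMYC RNA-seq library but DMSO replicate 2 (74), and 160 without parental DMSO replicate 3. The edge is not a gap: DCAF4 at -0.50 (mRNA -0.46) was just inside the early threshold and PSMG4, also -0.50 (mRNA -0.50), just outside. Within 0.05 of the threshold lay 35 falling genes inside and 38 outside. These counts cover only genes called in RNA-seq whose PRO-seq groups did not overlap and changed the same way.

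The difference between the 2 changes was tested directly as the interaction of assay and treatment in 1 edgeR fit. It called 0 of 11150 genes (0%), 0 also by limma voom, with 575 genes at an unadjusted p under 0.05 and a smallest adjusted p of 0.463. A change labelled early-only or late-only is therefore a pattern of sizes, and no single gene passed the test of the difference in these fits. The smallest unadjusted values belonged to DNAJB9 (0.000116), NCAM2 (0.000121), SREBF2 (0.00016) and RCC1 (0.000166), named after their values were seen.

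**Figure D2:**
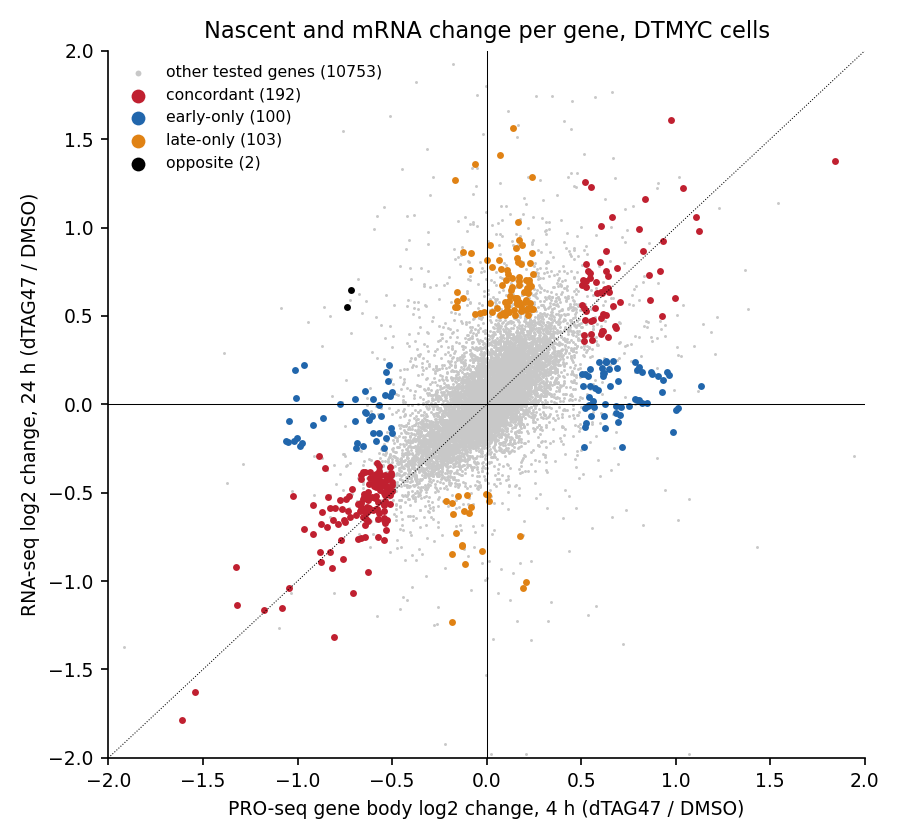
Each point is 1 of the tested genes, with the PRO-seq gene body log2 change at 4 h on the x axis and the RNA-seq log2 change at 24 h on the y axis (dotted line, equal change; 16 genes lie beyond the axes). The 192 concordant genes lie along the dotted line, the 100 early-only genes beside the horizontal axis and the 103 late-only genes beside the vertical axis.

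Concordant falls included genes of very different roles at close to equal size in both assays. MATK, a CSK-family kinase that restrains SRC-family kinases (chr19:3777967-3801810), had 38.8 and 45.0 CPM in DMSO gene bodies and 18.3 and 18.8 CPM in dTAG47. Its mRNA was 76.1, 65.8 and 79.5 CPM in DMSO and 33.1, 34.1 and 31.6 CPM in dTAG47. Every treated library was below every control in both assays, with log2 changes of -1.18 (SE 0.13) early and -1.16 (SE 0.11, edgeR adjusted p 0.000278) late. DUSP2, a nuclear phosphatase of MAP kinases, had 10.6 and 14.7 against 4.84 and 5.30 CPM in gene bodies. Its mRNA was 27.7, 24.2 and 28.6 against 12.7, 10.8 and 13.2 CPM, so that the log2 changes were -1.32 (SE 0.23) and -1.14 (SE 0.15, adjusted p 0.00144). TERT, the catalytic subunit of telomerase, had 28.3 and 39.2 against 13.6 and 18.3 CPM in gene bodies and 19.3, 15.7 and 17.2 against 7.59, 7.44 and 8.44 CPM in mRNA. The TERT groups did not overlap in either assay, and the changes were -1.08 (SE 0.22) and -1.15 (SE 0.15, adjusted p 0.00143).

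NEFH, the heavy neurofilament chain, had 13.4 and 16.7 CPM in DMSO gene bodies and 5.64 and 9.0 CPM in dTAG47. NEFH mRNA was 111, 115 and 115 CPM against 58.8, 56.1 and 51.4 CPM, and both changes were -1.04 (SE 0.27 early, SE 0.09 late, adjusted p 0.000278). DDN, which encodes dendrin, had the largest mRNA fall of the 8 genes named here, -1.32 (SE 0.10, adjusted p 9.54e-05), from 17.7, 16.8 and 18.4 to 7.07, 7.2 and 6.95 CPM. Its gene body change was smaller, -0.81 (SE 0.26), from 29.1 and 41.5 to 15.9 and 24.5 CPM, and the late-minus-early difference was -0.54 (SE 0.24, unadjusted p 0.0445, not past the threshold after adjustment). YDJC, RAC3 and FABP5 (a fatty acid carrier whose reads may be shared with near-identical copies) had early changes of -0.88, -0.83 and -0.82 and late changes of -0.84, -0.83 and -0.93. Parental cells moved by -0.34 to 0.08 for these 8 genes, with 0 calls in the fit of all 12 libraries. YDJC, DUSP2 and RAC3 moved there by -0.34, -0.33 and -0.31. Their change was not called different between the lines (edgeR interaction, adjusted p 0.212, 0.0712 and 0.0784). It was for MATK, TERT, NEFH, FABP5 and DDN. Of the 8, only YDJC had a MYC region of both DMSO ChIP-seq libraries near its start.

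Concordant rises were fewer than falls, with a median mRNA level of 7.91 CPM in DMSO against 67.0 for concordant falls. LIMS2, a LIM protein of integrin adhesions (chr2:128395996-128439360), had 9.55 and 11 against 16.2 and 19.7 CPM in gene bodies and 6.73, 6.36 and 6.02 against 12.9, 11.9 and 13.2 CPM in mRNA. Its changes were 0.81 (SE 0.18) and 0.99 (SE 0.12, adjusted p 0.00107), though another transcript overlaps it on the other strand. LGALS1, the secreted lectin galectin-1, had 8.16 and 7.87 against 15.4 and 13.7 CPM early and 128, 115 and 138 against 216, 216 and 199 CPM late. Its treated libraries were all higher, by 0.86 (SE 0.17) and 0.73 (SE 0.09, adjusted p 0.00156). STAT2, a transcription factor of interferon signalling, had 16.8 and 14.2 against 25.5 and 23.1 CPM early. STAT2 mRNA was 19.9, 18.5 and 18.8 against 30.1, 31.3 and 28.8 CPM, and the changes were 0.64 (SE 0.15) and 0.66 (SE 0.08, adjusted p 0.00154). MAP1A, a microtubule-associated protein, changed by 0.63 (SE 0.10) and 0.75 (SE 0.09, adjusted p 0.00107). In parental cells MAP1A changed by 0.46 (adjusted p 0.053), the one of these genes with a parental change of such size. C3, the central complement component, KIAA0319, OPTN (an autophagy receptor) and FAM122C changed by 0.60 to 0.69 early and 0.64 to 1.01 late.

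**Figure D3:**
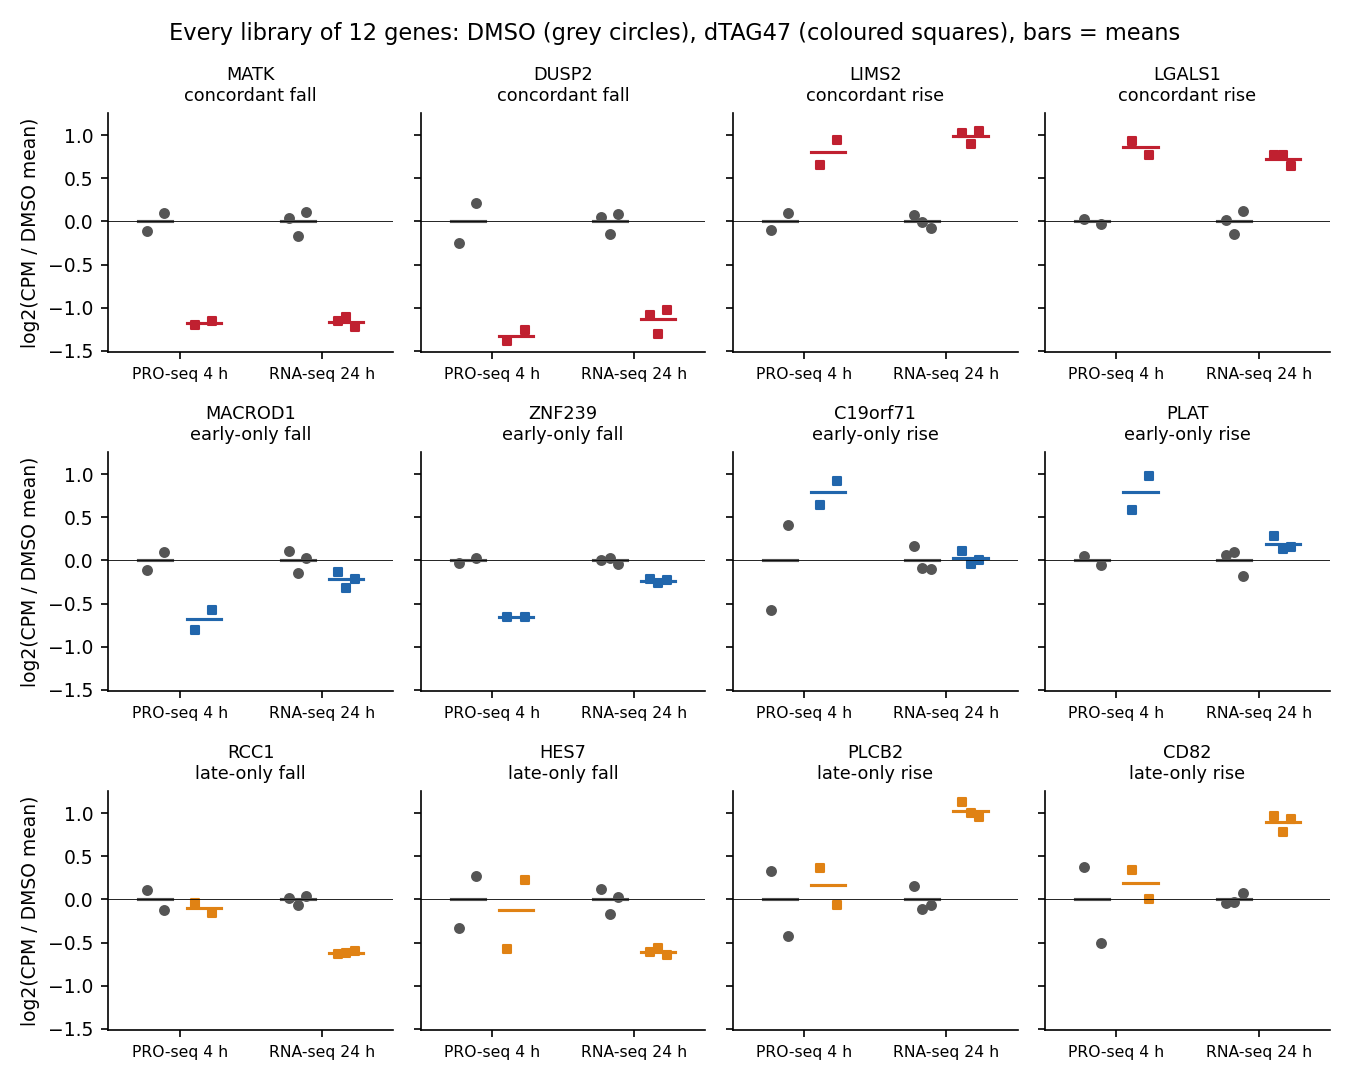
Every library of 12 genes, the first 2 named in each class and direction, as log2 of CPM over the DMSO mean (grey circles DMSO, coloured squares dTAG47, bars group means) for PRO-seq at 4 h (2 against 2) and RNA-seq at 24 h (3 against 3). The dTAG47 libraries of MATK and DUSP2 lie below -1 in both assays, ZNF239 is lower mainly in PRO-seq, and RCC1 is lower mainly in RNA-seq.

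Early-only genes were mostly scarce: their median gene body count was 34.75 per library for falls and 27.25 for rises, against 838.875 over all tested genes. Their lack of an RNA-seq call belongs to the fit of all 12 libraries. Fitting the 6 DTMYC libraries alone called 7 of the 39 falls and 3 of the 61 rises. Of the genes named below, it called ZNF239, MACROD1, CHCHD6, COX7C, GTF3A and RPL7 lower, and STX5 and SORT1 higher. Only 9 of the 39 falls and 12 of the 61 rises reached 5 CPM and 50 gene body counts. Among those that did, ZNF239, a zinc finger protein (chr10:44051793-44070066), had 50.6 and 52.9 CPM in DMSO gene bodies and 32.9 and 33.0 CPM in dTAG47. Its mRNA was 19.9, 20.3 and 19.4 against 17.1, 16.6 and 17 CPM. Both assays separated the groups, but the changes were -0.65 (SE 0.10) early and -0.23 (SE 0.13, adjusted p 0.294) late, a late-minus-early difference of 0.39 (SE 0.11, unadjusted p 0.00303). MACROD1, which removes ADP-ribose from proteins, had 133 and 154 against 82.3 and 96.9 CPM in gene bodies (-0.68, SE 0.12) and an mRNA change of -0.22 (SE 0.10, adjusted p 0.198). Its long gene body overlaps other transcripts on both strands.

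CHCHD6, a subunit of the complex that shapes mitochondrial cristae, had 215 and 228 against 148 and 157 CPM in gene bodies. CHCHD6 mRNA was 14.4, 12.5 and 14.7 against 11.6, 12.1 and 11.4 CPM, so the changes were -0.54 (SE 0.08) and -0.25 (SE 0.11, adjusted p 0.169). COX7C, a subunit of cytochrome c oxidase, had 12.4 and 10.9 against 8.13 and 7.23 CPM early (-0.60, SE 0.19) and 157, 153 and 176 against 136, 146 and 152 CPM late (-0.16, SE 0.07, adjusted p 0.204). ATP5I, a subunit of ATP synthase, C19orf70, another cristae subunit, GTF3A, the factor for 5S rRNA genes, and RPL7, a ribosomal protein with many near-identical copies, changed by -0.50 to -0.64 early and -0.05 to -0.19 late. GTF3A overlaps MTIF3 on the other strand, C19orf70 overlaps RPL36, and ATP5I overlaps MYL5.

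STX5, a SNARE protein of the Golgi (chr11:62574332-62599563), had the smallest SE of the 8 early-only rises named, with 49.6 and 53.2 against 82.4 and 81.1 CPM in gene bodies. Its mRNA went from 32.4, 30.2 and 33.5 to 39.4, 37.1 and 37.6 CPM, without overlap. The changes were 0.67 (SE 0.09) and 0.25 (SE 0.09, adjusted p 0.0967), and the difference was -0.45 (SE 0.10, unadjusted p 0.000657). KANSL1L had 5.76 and 6.52 against 9.73 and 10.4 CPM early (0.71, SE 0.19) and overlapping mRNA groups of 12, 14.5 and 11.5 against 11.5, 12 and 14.1 CPM (-0.01, SE 0.21). KIF1A, a kinesin motor, and C19orf71 likewise had mRNA changes of -0.07 and 0.03 beside early changes of 0.55 (SE 0.29) and 0.79 (SE 0.39). C19orf71 rested on 64 gene body counts per library. KANSL1L overlaps RPE and C19orf71 overlaps MFSD12, each on the other strand. PLAT (tissue plasminogen activator), SORT1 (a sorting receptor), MICAL1 (an actin oxidase) and WDR54 had early changes of 0.61 to 0.79 and late changes of 0.19 to 0.25.

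Late-only falls were few, and 9 of the 21 reached 5 CPM and 50 gene body counts. RCC1, the exchange factor that loads RAN with GTP (chr1:28832455-28865708), had 247, 232 and 251 CPM of mRNA in DMSO and 158, 158 and 161 CPM in dTAG47. The change of -0.62 (SE 0.07, adjusted p 0.000628) stood beside gene bodies at 1353 and 1147 against 1220 and 1122 CPM (-0.09, SE 0.11). The gene body of RCC1 overlaps the separate gene SNHG3 and small nucleolar RNAs on the same strand, and whether their reads were counted in it was not tested. The mean of 25044 counts per library was far above the median over all tested genes, 838.875. AXIN1, a scaffold of the complex that degrades beta-catenin, had 96.1, 89.1 and 95.7 against 70.6, 62.9 and 63.7 CPM in mRNA. Its gene body was 113 and 113 against 107 and 103 CPM, for changes of -0.51 (SE 0.10, adjusted p 0.00988) and -0.10 (SE 0.08). GLDC, the glycine decarboxylase, had 38.9, 38.2 and 39.1 against 25.9, 26.6 and 26.6 CPM in mRNA (-0.56, SE 0.07, adjusted p 0.00119). GLDC gene bodies overlapped, at 30.2 and 49.4 against 29.2 and 41.0 CPM (-0.18, SE 0.27). HES7 (a repressor of the segmentation clock), CISH (a SOCS-family inhibitor), SLC4A11 (a membrane transporter), NR4A1 (a nuclear receptor and immediate early gene) and GNB1L had late changes of -0.51 to -0.61 and early changes of -0.15 to 0.01, with SEs of the early change from 0.10 to 0.36.

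Late-only rises made up 82 of the 103 genes, and 45 reached the expression limits. PLCB2, a phospholipase C (chr15:40580098-40600174), went from 14.2, 11.8 and 12.2 to 27.9, 25.5 and 24.6 CPM of mRNA (1.03, SE 0.10, adjusted p 0.000278). Its gene bodies overlapped widely, at 25.5 and 15.2 against 26.3 and 19.5 CPM (0.17, SE 0.28). CD82, a tetraspanin, showed the same layout, with mRNA at 7.13, 7.18 and 7.75 against 14.4, 12.7 and 14.1 CPM (0.90, SE 0.15, adjusted p 0.00475). CD82 gene bodies were 12 and 6.47 against 11.7 and 9.27 CPM (0.18, SE 0.32). NCAM2, a neural cell adhesion molecule, had the smaller gene body SE of these genes but the larger mRNA SE, and its call was lost without any 1 of the 6 DTMYC libraries. Its mRNA went from 4.61, 4.65 and 4.99 to 8.35, 8.69 and 9.26 CPM (0.88, SE 0.23, adjusted p 0.0319). NCAM2 gene bodies were 55.6 and 49.3 against 59.4 and 57.6 CPM (0.16, SE 0.11), all treated libraries being higher, and the difference was 0.70 (SE 0.13).

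PDGFB, a growth factor, had mRNA at 20.3, 19.2 and 19.1 against 36.3, 34.6 and 31.2 CPM (0.80, SE 0.10, adjusted p 0.00115) beside overlapping gene bodies (0.17, SE 0.25). GMNC, a regulator of multiciliated cells, had mRNA at 18, 20.7 and 15.7 against 30.1, 32.5 and 31.8 CPM (0.79, SE 0.22, adjusted p 0.0476). UPK3B (a uroplakin), TNNI1 (slow skeletal troponin I) and AIFM3 had late changes of 0.72 to 0.80 and early changes of 0.11 to 0.23. Parental changes of the 16 named late-only genes ran from -0.30 to 0.24, with 0 calls in the fit of all 12 libraries. By the edgeR interaction the change differed between the lines for RCC1, GLDC, NR4A1, PLCB2, CD82, PDGFB, UPK3B and TNNI1. For the others it was not called different.

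Binding and sequence did not set the classes, and their shares in each class are given as a description. A MYC region of both DMSO ChIP-seq libraries had its midpoint within 1000 bases of the start in 7.63% of all tested genes, in 42 of 132 concordant falls (31.8%) and in 0 of 60 concordant rises. It was there in 3 of 39 early-only falls, 0 of 61 early-only rises, 1 of 21 late-only falls and 0 of 82 late-only rises. Of all 549 genes that fell in RNA-seq, concordant or not, 146 had such a region (26.6%). Counting a region in either DMSO library, the share was 24.4% of all genes, 62.9% of concordant falls and 57.4% of all RNA-seq falls. Open chromatin also differed: an ATAC-seq region of all DMSO libraries lay as near to the start in 76.5% of all genes. It did so in 77.3% and 53.3% of concordant falls and rises and 46.2% and 44.3% of early-only falls and rises. For late-only falls and rises these were 52.4% and 43.9%, and for genes with a MYC region in both DMSO libraries 95.5%. CACGTG, read on both strands since it is its own reverse complement, lay between 250 bases before and 50 after the start in 9.88% of all genes. The share was 26.5% of concordant falls, 1.67% of concordant rises, 10.3% and 8.20% of early-only falls and rises, and 4.76% and 4.88% of late-only falls and rises. Within 100 bases of the MYC region's midpoint it was found for 18 of the 42 concordant falls (42.9%) and for 23.5% of the other 809 genes with a region.

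**Figure D4:**
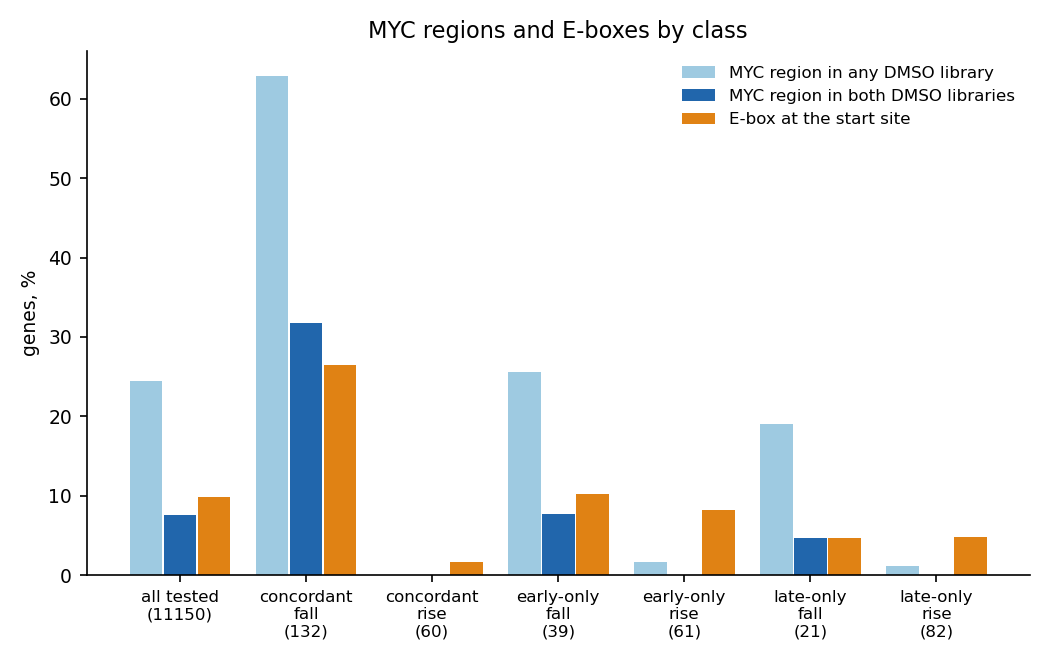
Percentage of genes with a MYC ChIP-seq region in any DMSO library (light blue), in both DMSO libraries (dark blue) and with an E-box near the start site (orange), for all tested genes and for the 6 class and direction groups, whose sizes stand in parentheses. Of the groups drawn, concordant falls have the tallest bars, 62.9%, 31.8% and 26.5%. All RNA-seq falls, not drawn, had 57.4%, 26.6% and 14.0%.

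Read from the side of binding, the 851 genes with a MYC region in both DMSO libraries had a median gene body change of -0.19, a median mRNA change of -0.16 and a parental median of -0.10. The gene body change was negative in 698 of them (82.0%), against 43.8% of the 10299 other genes. Of the 851, 146 fell in RNA-seq (17.2%) and 6 rose, and 57 had an early fall against 0 an early rise. Concordant falls had a median span of 14297 bases against 30053.5 over all genes, 17682 for all RNA-seq falls and 10412 for early-only falls. Their mRNA per nascent RNA in DMSO (median log2 ratio of CPM per kilobase) was 2.83 against 2.29 over all genes. The ratio was 2.80 for all RNA-seq falls, 2.61 and 2.72 for concordant and early-only rises, and 1.46 for late-only rises. For early-only and late-only falls it was 2.18 and 2.39. Promoter-proximal counts of concordant genes, a measure from the same 4 libraries, moved with the gene body. Their median log2 changes were -0.48 for falls and 0.53 for rises.

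The gene lists, chosen with earlier results of these data known, are described by role. Their counts stand beside 4.92% lower and 4.73% higher over all tested genes. Among 53 tested canonical MYC targets, 32 fell and 0 rose in RNA-seq, with medians of -0.46 in gene bodies, -0.39 in mRNA and -0.08 in parental mRNA, where all tested genes had medians of 0.02, 0.03 and -0.06. PRO-seq libraries were all lower in 46 of the 53, and 19 were concordant. SORD, sorbitol dehydrogenase, was at 116 and 98.3 against 74.4 and 59.2 CPM in gene bodies, and its mRNA fell by 0.56 on the log2 scale (SE 0.07, adjusted p 0.00131).

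Of 95 genes for rRNA processing and ribosome assembly, 48 fell and 0 rose, with medians of -0.39 early and -0.36 late. PRO-seq separated the groups downward in 81. NOP56, a core protein of box C/D small nucleolar particles, had 197 and 161 against 140 and 105 CPM in gene bodies and 338, 300 and 347 against 218, 227 and 220 CPM in mRNA. Its changes were -0.54 (SE 0.17) and -0.57 (SE 0.08, adjusted p 0.00182), and small nucleolar RNA genes lie in its introns. RRP1B, a nucleolar ribosome assembly factor, changed by -0.47 and -0.54 (adjusted p 0.00107), and IMP4, whose E-box is shown above, by -0.75 and -0.67 (adjusted p 0.0016). Among 34 genes of RNA polymerases I and III, 10 fell and 0 rose, with medians of -0.21 and -0.19. CD3EAP, a polymerase I subunit, changed by -0.81 (SE 0.16) and -0.65 (SE 0.11, adjusted p 0.0058).

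The 67 cytosolic ribosomal protein genes had 0 RNA-seq calls, although all 67 had negative changes in both assays. Their gene body medians were lower than their mRNA medians, -0.31 (range -0.56 to -0.02) against -0.17 (range -0.33 to -0.05), and the parental median was -0.13. PRO-seq libraries were all lower in 60 of the 67, and the late-minus-early difference was positive in 60, with 5 at an unadjusted p under 0.05 and 0 after adjustment. RPLP0, a stalk protein, shows the layout: gene bodies at 147 and 123 against 119 and 102 CPM, and overlapping mRNA at 2409, 2072 and 2523 against 2182, 2127 and 2144 CPM (-0.12, SE 0.10, adjusted p 0.55). In the fit of the 6 DTMYC libraries alone, 59 of the 67 fell. Many of these genes have near-identical copies among which reads can be divided. Translation factors had 5 of 41 lower and 0 higher, with medians of -0.21 and -0.18 beside -0.10 in parental cells. EIF3M and EEF1D, subunits of initiation and elongation factors, changed by -0.30 and -0.36 early and -0.33 and -0.32 late (adjusted p 0.0247 and 0.033). In parental cells EIF3M changed by -0.36 (edgeR adjusted p 0.0865) and EEF1D by -0.10. The EIF3M change was not called different between the lines (edgeR interaction, adjusted p 0.925), and the part of the compound was not tested.

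Mitochondrial import and chaperone genes had 10 of 32 lower and 0 higher, with medians of -0.27 early and -0.32 late. GRPEL1, the nucleotide exchange factor of the matrix HSP70, was at 47.8 and 47.8 against 32.1 and 32.1 CPM in gene bodies and at 120, 117 and 122 against 79.5, 82.0 and 83.5 CPM in mRNA. Its groups did not overlap and the changes were -0.57 (SE 0.10) and -0.55 (SE 0.06, adjusted p 0.000971). TRAP1, a mitochondrial HSP90, changed by -0.58 and -0.59 (adjusted p 0.0037). Of 66 mitochondrial ribosomal protein genes 13 fell and 0 rose, with medians of -0.20 and -0.18 beside -0.13 in parental cells.

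Among 29 genes of purine and pyrimidine synthesis 10 fell and 1 rose, with medians of -0.24 and -0.23. GART, which catalyses several steps of purine synthesis, was at 135 and 133 against 96.3 and 98.5 CPM in gene bodies and changed by -0.46 (SE 0.08) and -0.40 (SE 0.06, adjusted p 0.00282). IMPDH1 and IMPDH2, which commit IMP to guanine nucleotides, changed by -0.58 and -0.51 early and -0.65 and -0.51 late (adjusted p 0.00458 and 0.0026). In serine, one-carbon and amino-acid transport 8 of 24 fell and 1 rose. SLC19A1, the reduced folate carrier, changed by -0.64 and -0.68 (adjusted p 0.0016) and SLC7A5, a large neutral amino-acid transporter, by -0.48 and -0.56 (adjusted p 0.00348). For polyamines 2 of 14 fell, SRM and ODC1, at -0.63 and -0.38 early and -0.52 and -0.33 late (adjusted p 0.0241 and 0.0387). In glycolysis 4 of 19 fell and 1 rose. HK2, which starts glycolysis, changed by -0.50 and -0.49 (adjusted p 0.00248), while SLC2A3, a glucose transporter, rose by 0.36 (adjusted p 0.00707) with an early change of 0.25.

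Medians of the assays differed in sign for cholesterol synthesis, interferon response, p53 targets and the rhabdoid and mesenchymal markers. For immediate early genes they did so under TMM but not with library totals only. The gene body median of interferon response was only -0.04, with 7 of 14 genes negative. That of the rhabdoid and mesenchymal markers was only -0.004, with 4 of 8 negative. The 21 genes of cholesterol synthesis had a median gene body change of 0.15, positive in 17, and a median mRNA change of -0.12, negative in 17, of which 5 fell and 1 rose. The late-minus-early difference was negative in 20 of 21, at an unadjusted p under 0.05 in 7 and after adjustment in 0. In parental cells, which lack the tagged protein, all 21 were lower at 24 h, with a median of -0.43, and the part of the compound in the DTMYC change was not tested. INSIG1, which holds back the sterol sensor SCAP, was at 47.2 and 35.2 against 56.0 and 39.9 CPM in gene bodies (0.22, SE 0.21). INSIG1 mRNA went from 53.4, 57.1 and 50.5 to 40.6, 42.4 and 40.9 CPM (-0.38, SE 0.08, adjusted p 0.0178), beside -0.43 in parental cells (adjusted p 0.053). TM7SF2, a sterol reductase, went the other way, late-only with 0.67 (SE 0.10, adjusted p 0.00324) in DTMYC and -0.39 in parental mRNA.

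**Figure D5:**
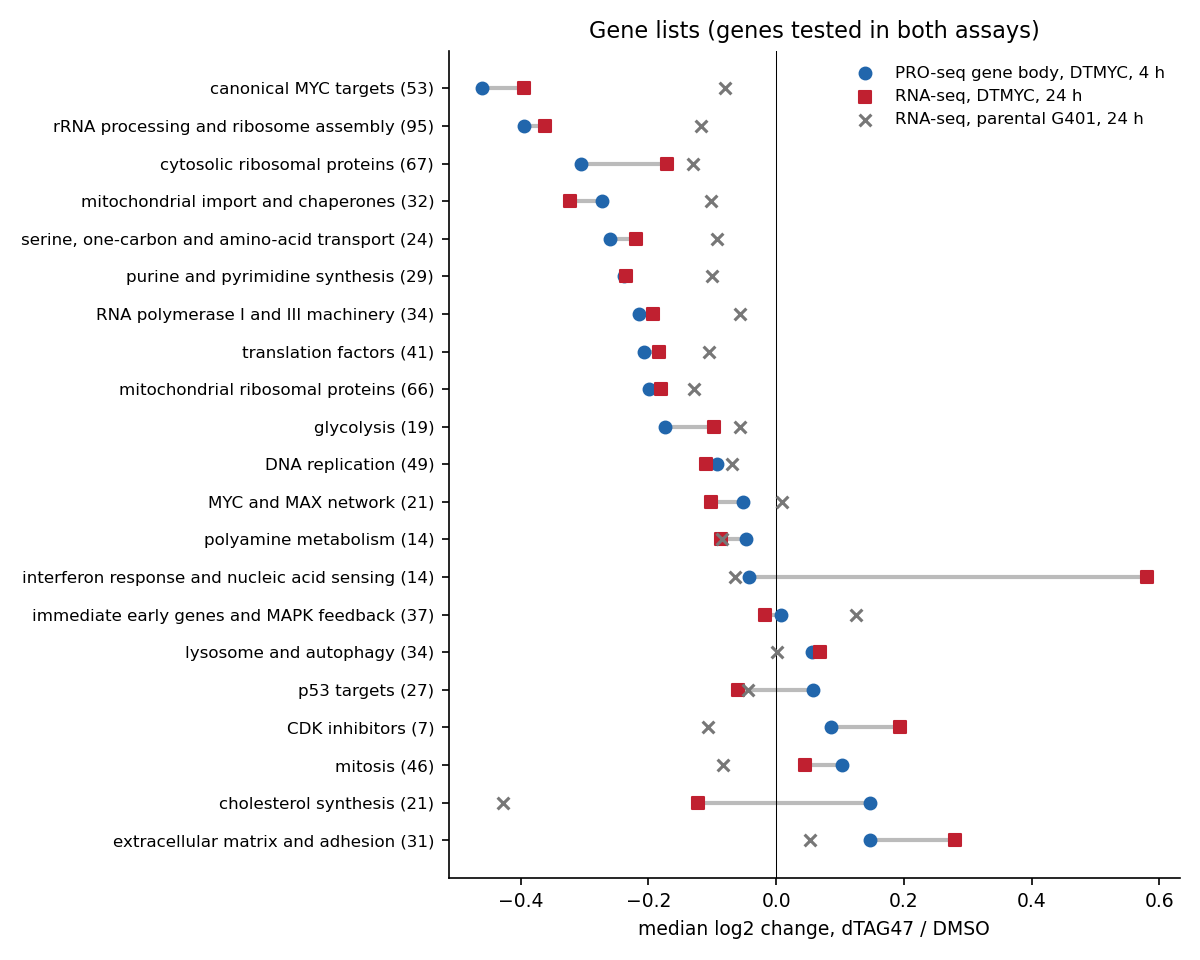
Median log2 change of each gene list in PRO-seq gene bodies at 4 h (circles), DTMYC mRNA at 24 h (squares) and parental mRNA at 24 h (crosses), with the number of tested genes in parentheses and a bar joining the first 2. Canonical MYC targets lie lowest in gene bodies at -0.46, and cholesterol synthesis lies at 0.15 early, -0.12 late and -0.43 in parental cells.

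In DNA replication 5 of 49 fell and 0 rose, with medians of -0.09 and -0.11; MCM7, MCM4 and MCM3, parts of the replicative helicase, changed by -0.14, -0.23 and -0.26 early and -0.32, -0.27 and -0.25 late (adjusted p 0.0207, 0.0277 and 0.0397). Of 46 mitotic genes 0 were called, with medians of 0.10 and 0.05, and TOP2A, a topoisomerase, was at 0.16 and 0.14. Among 27 p53 targets 4 fell and 0 rose, and the medians were 0.06 and -0.06. BBC3, the apoptosis inducer PUMA, had mRNA of 43.2, 43.2 and 44.9 against 36.0, 30.3 and 33.0 CPM (-0.40, adjusted p 0.0214) and an early change of 0.11 (SE 0.43). CDKN1A, the CDK inhibitor p21, had changes of 0.05 and 0.11 (adjusted p 0.498). Of the 7 tested CDK inhibitors 2 rose: CDKN2C by 0.47 (adjusted p 0.00671) and CDKN2B by 0.82 (adjusted p 0.0095), with early changes of 0.09 (SE 0.12) and 0.00 (SE 0.59). CDKN2B rested on 11.5 gene body counts per library.

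Extracellular matrix and adhesion genes had 0 of 31 lower and 6 higher, with medians of 0.15 early and 0.28 late. LAMB2, a laminin chain, had gene bodies of 23.2 and 26.2 against 30.8 and 32 CPM and mRNA of 208, 194 and 198 against 303, 299 and 269 CPM, with changes of 0.35 (SE 0.12) and 0.54 (SE 0.11, adjusted p 0.0113). THBS1, thrombospondin 1, rose by 0.99 in mRNA (adjusted p 0.0121) beside an early change of -0.59 with an SE of 0.57 on 12.8 gene body counts. Of 14 tested genes of interferon response and nucleic acid sensing 4 rose and 0 fell, with medians of -0.04 early and 0.58 late. Their mRNA change was positive in 13 and their gene body change negative in 7. Their PRO-seq libraries were all higher in 5 and all lower in 1. DDX58, the RNA sensor RIG-I, had gene bodies of 26.1 and 20.9 against 33.5 and 35.2 CPM and mRNA of 10.0, 12.1 and 9.72 against 18, 17.4 and 17.9 CPM, for changes of 0.55 (SE 0.14) and 0.75 (SE 0.20, adjusted p 0.037). Lysosome and autophagy genes had 4 of 34 higher and 0 lower. GABARAPL1, an ATG8-family protein of autophagosomes, was concordant at 0.63 and 0.50 (adjusted p 0.00203).

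Within the MYC and MAX network 5 of 21 fell and 0 rose. TFAP4, a bHLH factor that also binds E-boxes, had gene bodies of 51.9 and 49.8 against 30.5 and 34.8 CPM and mRNA of 42.4, 41.9 and 42.4 against 28.8, 26.3 and 25.8 CPM, and changed by -0.64 (SE 0.11) and -0.65 (SE 0.10, adjusted p 0.00386). MAX, the dimer partner of MYC, changed by -0.29 (SE 0.08) and -0.30 (SE 0.07, adjusted p 0.0216). Of 37 immediate early genes 2 fell and 2 rose, which is near the share over all tested genes, with medians of 0.01 and -0.02. SPRY2, an inhibitor of receptor tyrosine kinase signalling, was late-only at 0.63 (adjusted p 0.0136) with an early change of -0.15 (SE 0.36).

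Of the 80 genes chosen for naming by rule that RNA-seq called, 45 kept the call in every alternative tried. The other 35 lost it in at least 1, mostly when 1 library was left out: AXIN1, BBC3, CISH, CTSB, DDX58, DHCR7, EEF1D, EIF2B5, EIF3M, FAM122C, GMNC, GNB1L, HES7, IFI35, INSIG1, LAMB2, MAX, MCM3, MCM4, MCM7, MRPL12, MRPL4, NCAM2, NR4A1, ODC1, OPTN, PFKFB3, PLK3, RUVBL2, SLC4A11, SPRY2, SRM, THBS1, TMEM55A and TRIAP1.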

How the data were processed

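RNA-seq and PRO-seq of DTMYC cells were compared, with parental RNA-seq and DTMYC MYC ChIP-seq and ATAC-seq beside them. The authors deposited raw read counts per gene (RNA-seq) and per transcript for gene bodies and promoter-proximal regions (PRO-seq), and a gene body density signal (used here only to work out gene body lengths). The deposited peak lists give a score for each peak, called per sample. Tools listed in the submitters' processing notes, without versions or roles, are cutadapt, Bowtie2, STAR, featureCounts, MACS2, DiffBind and DESeq2, and the build is hg19.

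Tests on the counts were run in R 4.3.3 with edgeR 4.0.16 (filterByExpr, TMM, quasi-likelihood F-test, two-sided, Benjamini-Hochberg adjustment, threshold 0.05). RNA-seq used all 12 libraries, PRO-seq its 4, and the difference of both changes the 6 DTMYC RNA-seq and 4 PRO-seq libraries with TMM within each assay. The labels name no spike-in, and a change of all transcripts together would not show after this scaling. edgeR's common BCV, the spread between replicates beyond counting error, was 0.121 over the 12 RNA-seq libraries and 0.126 in PRO-seq. It was 0.0503 over the 6 DTMYC RNA-seq libraries alone. Scripts were tested on simulated counts. DESeq2 1.42.0, limma 3.58.1 and other filters, scalings and library subsets were alternatives. No strand setting for the counting is given in the sources used here.

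Classes were set as in the text. Genes named for a class had at least 5 CPM, at least 50 gene body counts and no overlap of the groups in the assay or assays that set the class: 8 per class and direction by size of change. Without these limits were named up to 3 called members per list by smallest adjusted p (or the 2 most abundant if none was called), MYC, MAX and CDKN1A. The members and lists were chosen with earlier results of these data known. The planned RefSeq promoter table matched 5972 of 11150 genes (53.6%), too few for that check, so E-boxes were counted in GRCh37 around the start in the PRO-seq table instead. Annotation was GENCODE v44 lifted to GRCh37.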

Additional observations from a re-analysis of the deposited data

Results flagged for a closer look

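The RNA-seq change after dTAG47 differed between DTMYC and parental cells, by the interaction in the edgeR fit at an adjusted p under 0.05, in 39 of the 192 concordant genes, in 22 of the 103 late-only genes and in 0 of the 100 early-only genes. Over all 11150 genes tested in both assays 147 differed (1.32%). The RNA-seq call that sets the first 2 classes, and that early-only genes lack, comes from the same libraries, so these counts are not independent of the classes.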

How the results depend on the processing

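The RNA-seq count of 1167 became 4593 with the 6 DTMYC libraries alone, 3951 without parental DMSO replicate 3 (added after seeing the data) and 329 to 636 without any 1 DTMYC library. The PRO-seq count of 0 became 67 with DESeq2, 2 with no filter on low counts and 5 to 44 without any 1 library. With the replicate number as a block PRO-seq called 4360 genes, RNA-seq 1328 and the difference of both changes 114, against 0 without the block. Same-numbered PRO-seq libraries deviated together (correlation 0.639), but 2 pairs do not show that numbers pair the samples, and in RNA-seq these correlations were 0.133, 0.00107 and -0.0486. The difference otherwise called 0 to 1 without any 1 library. A threshold of 0.3 for the early change gave 503 concordant, 6 opposite and 484 early-only genes, and 1 gave 12, 0 and 10, by construction. Gene bodies of at least 2000 bases and 50 counts left 28 early-only and 0 opposite genes. RNA-seq size in place of its test gave 230 late-only and 6 opposite genes, and the 6-library fit 6 opposite genes. Without parental DMSO replicate 3 there were 160 late-only and 6 opposite genes. Leaving out 1 library gave 94 to 358 concordant, 0 to 10 opposite, 90 to 393 early-only and 46 to 160 late-only genes; the cause was not tested. The r of 0.53 became 0.76 with at least 50 gene body counts and 5 CPM, 0.81 among called genes, 0.36 with promoter-proximal counts and 0.36 to 0.52 without any 1 library. None of the 80 named genes called in RNA-seq reversed its mRNA change. Small gene body changes and differences of both changes could reverse. The NR4A1 gene body, at a mean of 41.6 CPM in dTAG47, lay above DMSO replicate 1 (31.2) and below DMSO replicate 2 (51.6). Its direction therefore depended on which of these was left out. The MATK difference went from -0.0148 to 0.0868 without PRO-seq DMSO replicate 1. Other scalings moved the median of all genes by under 0.1 on the log2 scale.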
